A study of Mus musculus with 20 samples.

Results

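The subject is a set of 39 genes of the cell cycle and DNA replication, chosen by name from the 30691 named gene lines of a whole-lung RNA-seq table. The 26 members of mitosis and chromosome segregation were Mki67, Top2a, Ccnb1, Ccnb2, Ccna2, Cdk1, Bub1, Bub1b, Aurka, Aurkb, Plk1, Cdc20, Birc5, Cenpe, Cenpf, Kif11, Kif20a, Kif23, Kif4, Nusap1, Tpx2, Prc1, Ube2c, Hmmr, Cdca3 and Cdca8. The 13 members of DNA replication and its licensing were Mcm2 to Mcm7, Pcna, Rrm2, Tyms, Cdc45, Cdc6, Cdt1 and E2f1. All 39 had a line in the table and passed the filter on low values (a signal of at least 10 in at least 4 libraries), as did 21658 genes in all. The 20 libraries came from whole lungs of C57BL/6 mice of both genotypes, each kept at either of the oxygen levels. There were 5 VIPKO hypoxia, 4 VIPKO normoxia, 5 WT hypoxia and 6 WT normoxia libraries. VIPKO mice carried a targeted deletion of Vip, the gene of vasoactive intestinal peptide, which relaxes airway and vascular smooth muscle. The genotype field of their labels reads knockdown, whereas titles and design text read knockout, and the deleted stretch is not described. Hypoxia was 10% oxygen and normoxia 21% oxygen, each for 4 weeks, and all libraries carry the same batch label. Age and sex (not given in the sources used here) could not be used. The labels do not tie libraries to separate animals, and p-values therefore measure only the spread between these samples.

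The cell cycle copies the genome once in S phase and parts the copies in mitosis. In late mitosis and G1 the loading factors Cdc6 and Cdt1 place the Mcm2 to Mcm7 helicase on replication origins, and Cdc45 activates it when S phase begins. Cyclin A2 and the B cyclins with the kinase Cdk1 then drive entry into mitosis, where kinesins, spindle proteins and the checkpoint kinases align and separate the chromosomes. In the adult lung few cells divide at rest, and immune and blood precursor cells also express these genes. In whole tissue, fewer cells of a type and less RNA per cell cannot be told apart.

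Vip itself did not sort the libraries by genotype. Its signal ranged from 1.08 to 106 in VIPKO hypoxia, from 1.16 to 5.54 in VIPKO normoxia, from 0 to 6.77 in WT hypoxia and from 0 to 93.0 in WT normoxia libraries. The library labelled VIPKO hypoxia 4 held the value of 106 and WT normoxia 5 that of 93.0, so Vip could not check the genotype labels. All 9 lung markers were above 0 in all 20 libraries. VIPKO hypoxia 3 stood apart by thymus genes. The summed signal of 12 thymus markers was 21968 there and 464 to 689 in the other 19 libraries, which had 1 to 6 of the markers at 0. In it Rag1 reached 11136 and Prss16 2583. WT hypoxia 5 carried skeletal muscle RNA, with Acta1 at 16163 against at most 385 elsewhere. The mean log2(signal + 1) of 10 muscle markers was 11.5 there. It was 6.66 in VIPKO hypoxia 1, 5.61 in VIPKO normoxia 3 and 2.60 to 4.14 in the remaining libraries. The first principal component held 21.0% of the variance. At its high end VIPKO normoxia 2 and 3 and VIPKO hypoxia 2 lay at 59.2, 75.4 and 65.4, and no other library was above 33.6. At its low end VIPKO hypoxia 3 lay at -76.2, WT hypoxia 3 at -58.9 and WT hypoxia 5 at -58.5. Depth, estimated from the spacing of low values, ran from 4.96 to 56.7 M reads over 19 libraries. VIPKO hypoxia 2 was left aside there because its spacing was unclear.

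Promoters of mitosis genes often hold CCAAT boxes, bound by NF-Y, next to a CHR element, bound by the DREAM and MuvB complexes, whereas replication genes often hold sites for E2F factors. RefSeq (GRCm38.p6) gave promoter windows, from 250 bases before the annotated start to 50 after it, for 34 of the 39 members. CCAAT was searched on both strands, as were the CHR core TTTGAA and the E2F motifs TTTCCCGC, TTTCGCGC, TTTGCCGC and TTTGGCGC. E2F matches may overlap each other. Both a CCAAT and a CHR core stood in 17 of 22 mitosis genes with a window, in 2 of 12 replication genes, and in 7.97% of 27025 RefSeq genes. CCAAT alone stood in 20 of 22, 8 of 12 and 41.1%, and the CHR core in 17 of 22, 2 of 12 and 20.2%. An E2F motif stood in 1 of 22 mitosis genes (Cdk1), 6 of 12 replication genes and 2.6% of all. The stretches below show both layouts in 3 mitosis members that carry results given further on and in 2 helicase subunits. Motifs are in capitals, strands run in the direction of the gene, and ATTGG is the reverse complement of CCAAT and counts as a CCAAT box.
Mki67 (chr7:135716457-135716582, minus strand): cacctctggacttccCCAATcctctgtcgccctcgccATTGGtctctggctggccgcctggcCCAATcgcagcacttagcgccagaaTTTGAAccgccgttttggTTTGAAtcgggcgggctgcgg
Hmmr (chr11:40733409-40733624, minus strand): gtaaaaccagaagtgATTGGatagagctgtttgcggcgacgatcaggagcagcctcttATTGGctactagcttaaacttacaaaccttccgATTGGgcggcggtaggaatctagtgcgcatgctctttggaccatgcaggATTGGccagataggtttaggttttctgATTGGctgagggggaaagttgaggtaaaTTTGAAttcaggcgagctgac
Kif23 (chr9:61946777-61946821, minus strand): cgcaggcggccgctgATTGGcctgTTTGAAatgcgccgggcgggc
Mcm5 (chr8:75109341-75109534, plus strand): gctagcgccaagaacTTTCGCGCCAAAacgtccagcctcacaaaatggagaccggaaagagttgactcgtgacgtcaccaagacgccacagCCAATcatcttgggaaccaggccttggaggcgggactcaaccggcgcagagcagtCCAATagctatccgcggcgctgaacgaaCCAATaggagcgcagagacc
Mcm6 (chr1:128359700-128359830, minus strand): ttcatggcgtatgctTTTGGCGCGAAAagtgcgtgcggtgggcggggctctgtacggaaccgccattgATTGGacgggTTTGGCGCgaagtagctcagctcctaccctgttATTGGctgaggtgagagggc
In the Mki67 stretch 3 CCAAT boxes precede 2 CHR cores, in Hmmr 5 CCAAT boxes precede 1, and in Kif23 1 box and 1 core straddle the start. In Mcm5 and Mcm6 the first capitals are 2 overlapping E2F motifs, Mcm6 has 1 more between its 2 CCAAT boxes, Mcm5 has 3 CCAAT boxes, and neither stretch holds a CHR core. A match is letters in a window and not a measured binding site, and binding was not measured here.

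**Figure D1:**
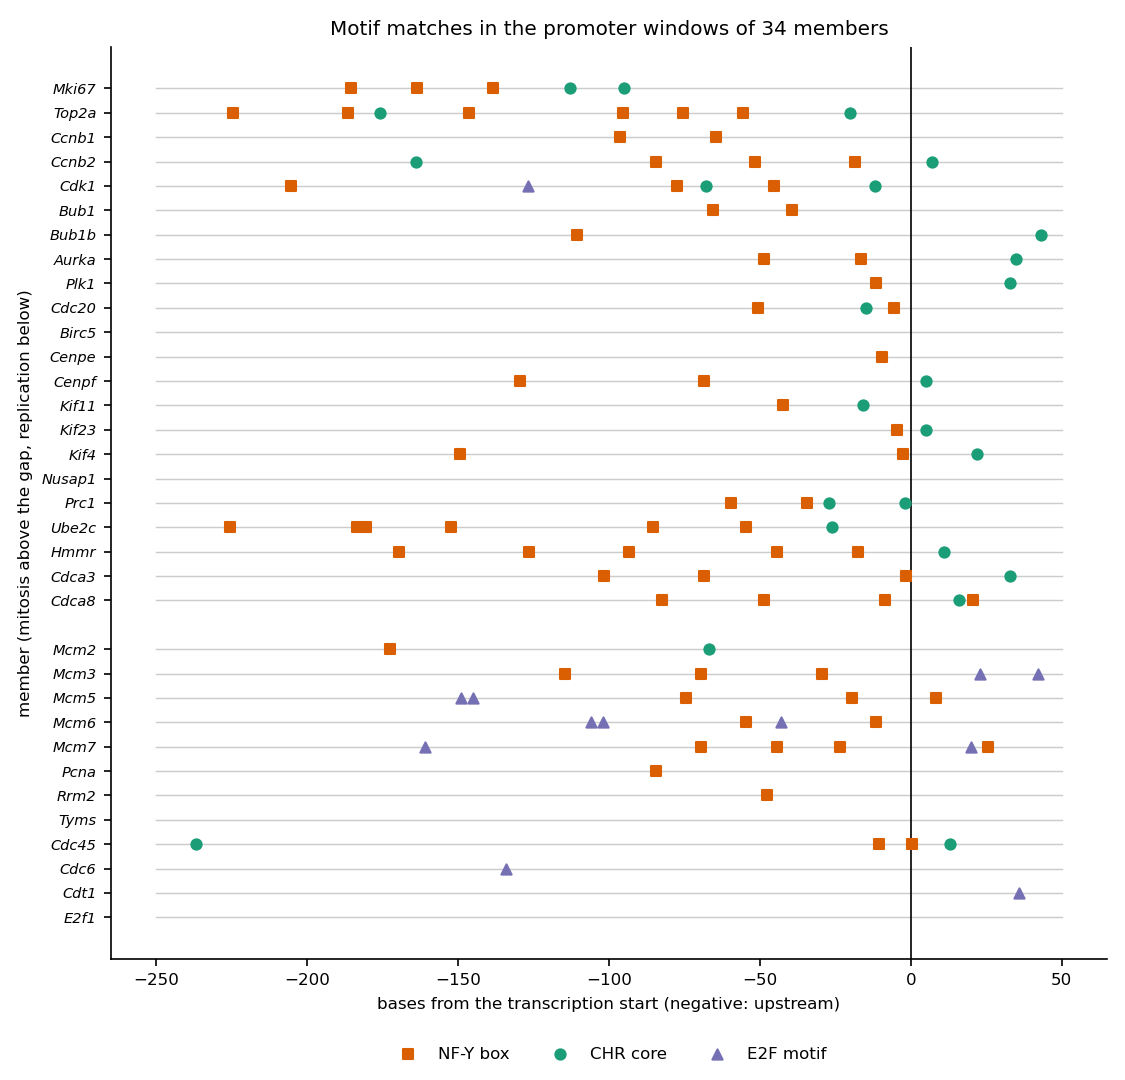
Motif matches along the promoter windows of 34 members; the x axis is the distance in bases from the annotated start, each line is a gene, and symbols mark NF-Y boxes (CCAAT), CHR cores and E2F motifs. CHR cores lie in 17 of the 22 mitosis genes and in 2 of the 12 replication genes.

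The members moved together from library to library. The mean log2(signal + 1) of the 26 mitosis members was 6.33 ± 0.61 in VIPKO hypoxia (SD, n = 5), 6.63 ± 0.30 in VIPKO normoxia (n = 4), 5.45 ± 0.45 in WT hypoxia (n = 5) and 5.97 ± 0.17 in WT normoxia (n = 6). That of the 13 replication members was 7.67 ± 0.38, 7.73 ± 0.29, 7.43 ± 0.11 and 7.41 ± 0.18 in the same 4 groups. The mitosis mean thus spanned more than the replication mean between groups. VIPKO hypoxia 3, the library with thymus genes, was the highest of its group for 36 of the 39 members and the highest of all 20 libraries for 26. VIPKO hypoxia 1 was the lowest of its group for 30 members. VIPKO normoxia 2 was the highest of its group for 27 and VIPKO normoxia 3 the lowest for 29. Among WT hypoxia libraries, number 5 was the highest for 21 members and number 2 the lowest for 20. WT normoxia 2 was the lowest of all 20 libraries for 8 of the 13 replication members.

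**Figure D2:**
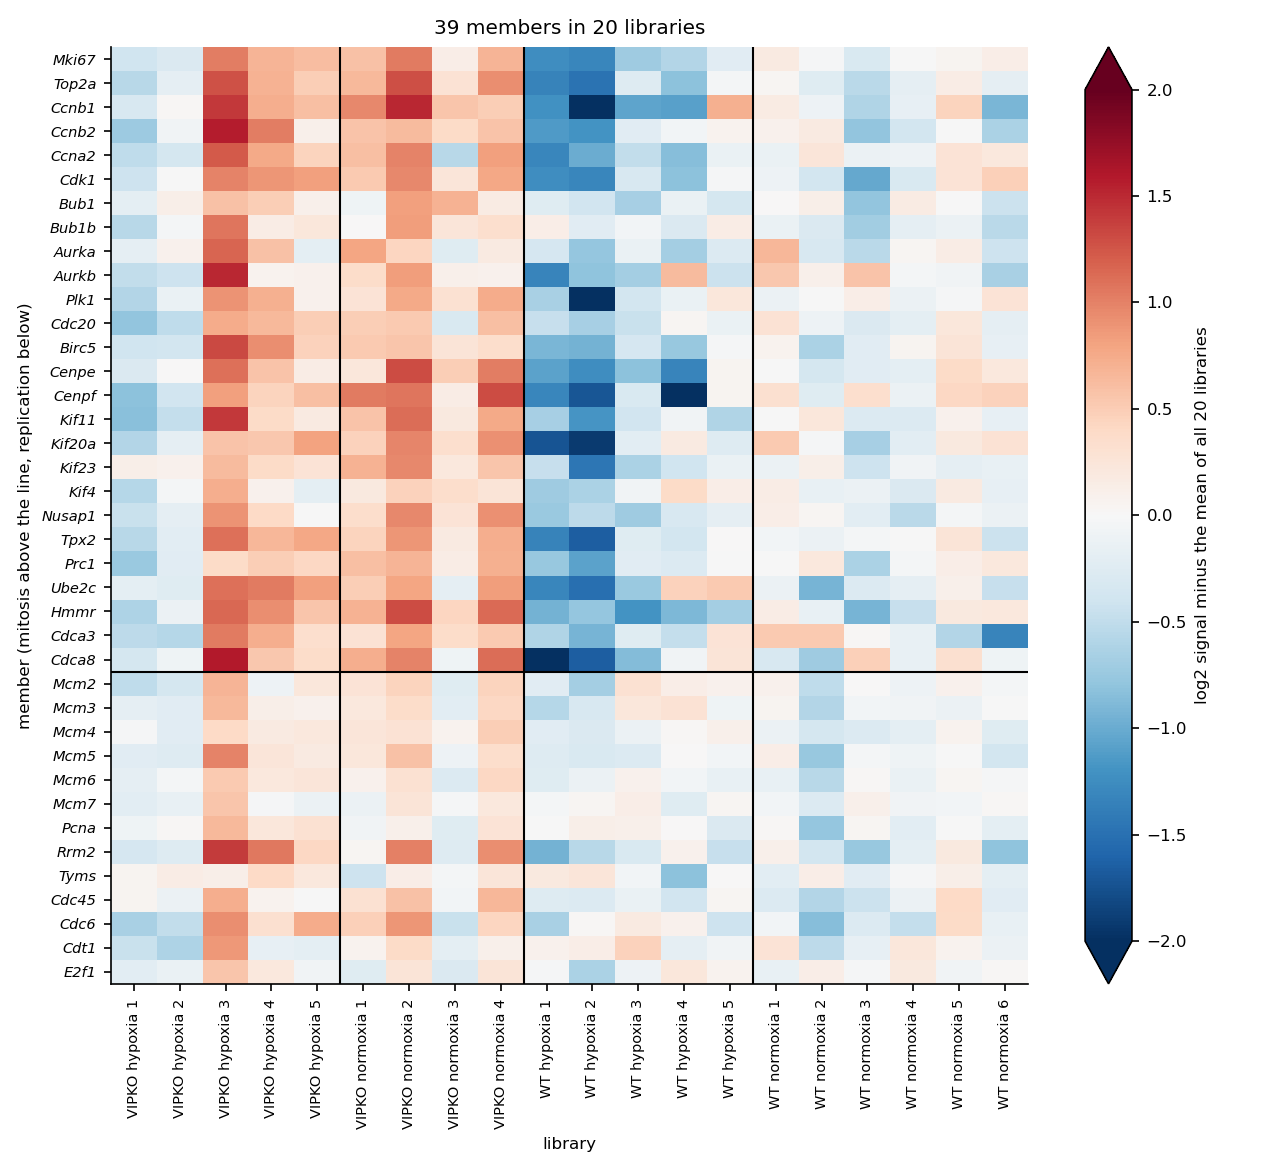
Log2 signal of each member (rows) in each library (columns, by group), as the difference from that gene's mean over 20 libraries; red is higher, blue is lower, and differences past 2 take the end colours. VIPKO hypoxia 3 is red for most rows, and WT hypoxia 1 and 2 are blue for most mitosis rows.

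**Figure D3:**
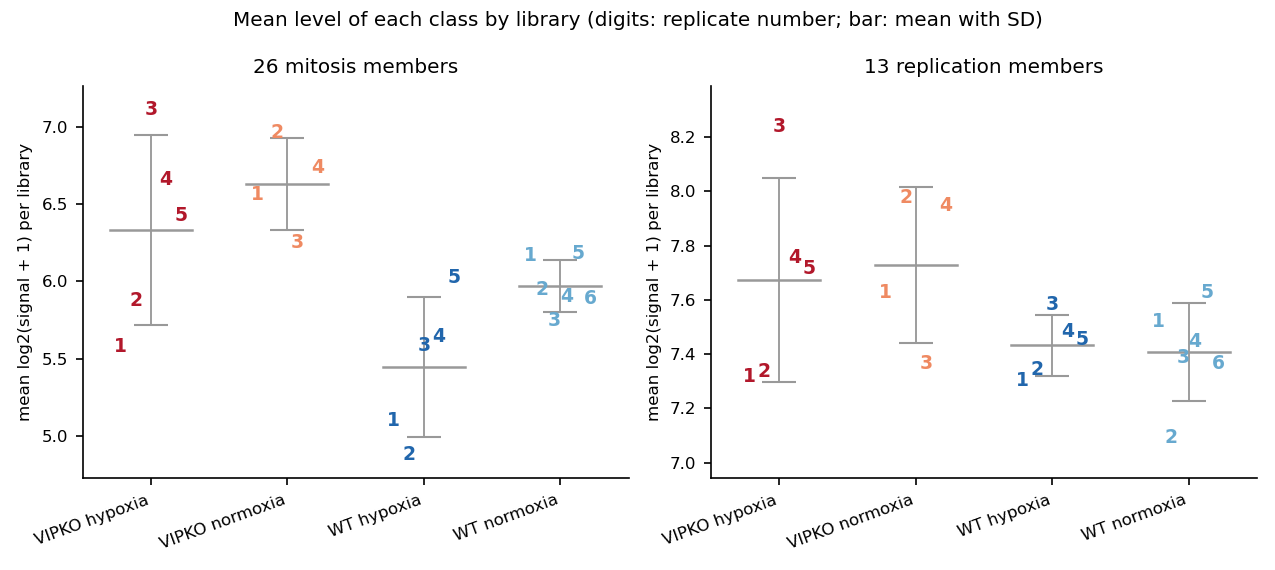
Mean log2(signal + 1) over the 26 mitosis members (left) and the 13 replication members (right) in each library; digits are replicate numbers, and bars are group means with SD. The mitosis means run from 4.88 in WT hypoxia 2 to 7.11 in VIPKO hypoxia 3.

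Within groups, after each gene's group means were removed, the median Pearson r between pairs of mitosis members was 0.66 over 20 libraries, and between pairs of replication members 0.67. Between a mitosis and a replication member the median was 0.55. Without VIPKO hypoxia 3 these were 0.58, 0.54 and 0.41. The genes closest to the mean of the other members of their class were Top2a (r = 0.97) and Mki67 (0.96), and the farthest were Bub1 (0.39) among mitosis members and Tyms (-0.03), the thymidylate synthase, among replication members. The points share library and depth, so these values describe the libraries.

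In hypoxia, 4 mitosis members were higher in VIPKO than in WT lungs. Mki67, the nuclear antigen used to mark dividing cells, was 2.20-fold higher, Hmmr 2.42-fold, Cenpe 2.27-fold and Kif23 1.88-fold (on the scale of log2(signal + 1), as are all folds here). These 4 passed an adjusted p of 0.05 and none fell. They are 10.3% of the members, against 0.716% of all genes tested called higher and 1.62% called in either direction. Without VIPKO hypoxia 3 the same 4 passed, against 6.25% of all genes called in either direction, so the contrast with all genes was then much smaller. All 4 are mitosis members, 15.4% of that class, and no replication member passed.

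Mki67 (chr7:135689784-135716361, GRCm38) had a signal of 492, 530.05, 1319, 1039 and 1001 in VIPKO hypoxia libraries 1 to 5, against 275, 262, 396, 431 and 557 in WT hypoxia libraries 1 to 5. The VIPKO values ran high in libraries 3 to 5, and libraries 1 and 2 lay within the WT range. The means were 876 ± 356 in VIPKO and 384 ± 122 in WT lungs (SD, n = 5 each), and the log2 change was 1.14 ± 0.25 (SE) with an adjusted p of 0.0265. Kif23 (chr9:61915905-61946774), the kinesin of the central spindle in cytokinesis, had 117, 115, 167, 142 and 131 in VIPKO and 78.4, 38.9, 69.2, 81.6 and 98.2 in WT libraries. Every VIPKO value was above every WT value, and the change was 0.91 ± 0.20 (adjusted p = 0.0296). Hmmr (chr11:40701395-40733422), a spindle-associated hyaluronan receptor, had 19.1, 27.3, 66.9, 57.7 and 44.4 in VIPKO and 15.04, 16.9, 12.5, 15.5 and 18.3 in WT libraries. These groups did not overlap either, although VIPKO hypoxia 1 was only just above the highest WT library, and the change was 1.28 ± 0.32 (adjusted p = 0.0445). WT hypoxia 4 had the lowest estimated depth, 4.96 M reads, where 1 read is worth a signal of about 3.89. Its Hmmr value of 15.5 thus rests on few reads, and the lack of overlap is imprecise. Cenpe (chr3:135212537-135273611), the kinetochore kinesin that aligns chromosomes, had 56.3, 69.8, 149, 103 and 76.7 in VIPKO and 32.5, 28.8, 38.7, 27.2 and 71.96 in WT libraries. WT hypoxia 5 was above 2 of the VIPKO libraries, and the change was 1.18 ± 0.29 (adjusted p = 0.0419). The Cenpe value of 27.2 in WT hypoxia 4 also rests on few reads.

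**Figure D4:**
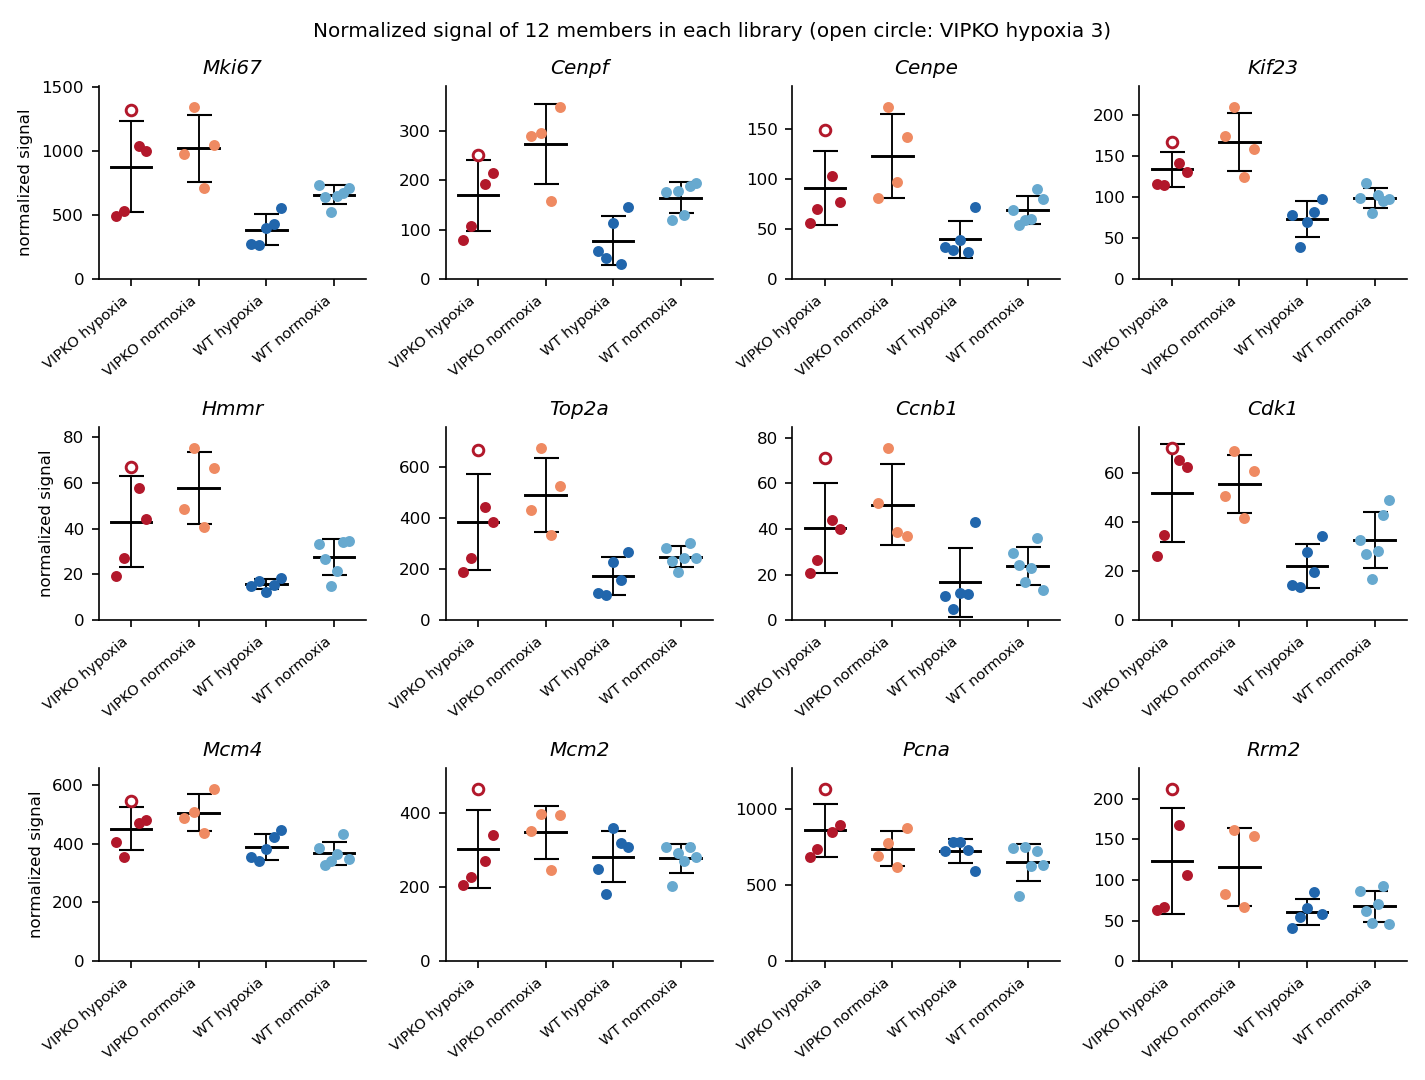
Normalized signal (y axis, from 0) of 12 members in each library of the 4 groups; points are libraries, the open circle is VIPKO hypoxia 3, and bars are means with SD. For Kif23 and Hmmr all VIPKO hypoxia points lie above all WT hypoxia points, and for the replication genes Mcm2 and Pcna the groups overlap.

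The other mitosis members that were followed in every library had similar orders but missed the threshold. Top2a, the topoisomerase that untangles sister DNA, had 187, 241, 666, 443 and 384 in VIPKO hypoxia and 108, 98.1, 228, 155 and 267 in WT hypoxia libraries (1.13 ± 0.30, adjusted p = 0.0612). Ccnb1, cyclin B1, had 20.6, 26.4, 71.2, 43.9 and 40.2 in VIPKO hypoxia and 10.7, 5.08, 12.1, 11.7 and 43.2 in WT hypoxia libraries (1.45 ± 0.43, adjusted p = 0.0796). In both genes libraries 3 to 5 of VIPKO were the high ones. WT hypoxia 5 was above 2 VIPKO libraries for Top2a and above 3 for Ccnb1. Cdk1, the kinase that cyclin B1 activates, had 26.01, 34.6, 70.1, 65 and 62.3 in VIPKO and 14.2, 13.5, 27.7, 19.4 and 34.3 in WT hypoxia libraries (1.19 ± 0.33, adjusted p = 0.0669). Ccnb1 in WT hypoxia 2 and 4 rested on about 3 estimated reads each, so its low end is imprecise. The regulators of the later steps, the kinases Aurkb and Plk1 and the chromosomal passenger Birc5, had mean signals of 57.96 ± 40.7, 52.96 ± 22.3 and 49.6 ± 25.8 in VIPKO hypoxia lungs. Their WT hypoxia means were 34.7 ± 20.5, 31.5 ± 15.5 and 22.6 ± 6.96 in the same order, with adjusted p of 0.332, 0.209 and 0.0899.

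Over the 39 members, 38 log2 changes were above 0, against 52.8% of all genes tested, Cdt1 being the exception (-0.20 ± 0.22), with a median of 0.67 against 0.02 over all genes. The mitosis median was 0.95 (all 26 above 0) and the replication median 0.24. Unadjusted limma p-values were under 0.05 for 22 members, or 56.4%, all higher, against 9.18% of all genes, of which 21 were mitosis members and 1 was Rrm2, the ribonucleotide reductase subunit that feeds S phase (0.88 ± 0.33). Groups did not overlap for 2 members, 5.13%, against 1.81% of all genes. Without VIPKO hypoxia 3 the same 4 genes passed, with changes of 0.96 (Mki67), 0.83 (Kif23), 0.99 (Cenpe) and 1.09 (Hmmr). The median over the members was then 0.45, and 6.25% of all genes were called in either direction. In that fit 14 members had an unadjusted p under 0.05, and the share of all genes at that level is not given here.

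These calls depended on single libraries. Mki67 missed the threshold without the library labelled VIPKO hypoxia 4, VIPKO hypoxia 5 or WT hypoxia 1, 2 or 3 (adjusted p 0.0586 to 0.0741), and Kif23 without those or VIPKO hypoxia 2 (0.0504 to 0.0727). Cenpe missed it without those 6, WT hypoxia 4 or WT normoxia 1, 3, 4 or 6 (0.0501 to 0.102), and Hmmr without those 6, VIPKO normoxia 1, 2 or 4, WT hypoxia 5 or WT normoxia 1, 4 or 6 (0.0524 to 0.117). The count of members called was 0 without the library labelled VIPKO hypoxia 4, VIPKO hypoxia 5, or WT hypoxia 1, 2 or 3, it was 1 without VIPKO hypoxia 2, 2 without WT normoxia 1, 4 or 6, and 7 without WT hypoxia 5. Fitted on these 2 groups alone, no member passed. The summed mitochondrial ribosomal RNA was 4506 to 9415 in VIPKO hypoxia and 396 to 7058 in WT hypoxia libraries. Markers of neutrophil precursors moved too, with 1 of the 4 tested (8 listed) called higher, namely Ngp at 824, 76.2, 126, 71.3 and 57.5 in VIPKO hypoxia and 15.04, 20.3, 13.8, 54.4 and 3.43 in WT hypoxia libraries. Their summed signal was 479.5 to 2259 in VIPKO hypoxia against 250.9 to 1881 in WT hypoxia libraries. Of the 5 erythroid precursor markers tested (9 listed), 1 was called higher (Tfrc, the transferrin receptor, 0.59 ± 0.14, adjusted p = 0.0361) and 3 had an unadjusted p under 0.05, with a median change of 1.33. With VIPKO hypoxia 3 left out, 4 of the 5 had an unadjusted p under 0.05, 1 was called and the median was 1.54. The summed signal of the listed erythroid markers was 2448 to 3925 in VIPKO hypoxia, with none at 0, and 1539.7 to 3277 in WT hypoxia libraries, with up to 2 at 0. The part of these cells in the results was not tested.

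In normoxia, 3 members were higher in VIPKO than in WT lungs. They were Mcm4, a subunit of the replicative helicase (1.37-fold), Kif23 (1.67-fold) and Hmmr (2.08-fold). These are 7.69% of the members, against 4.69% of all genes called higher and 8.65% called in either direction, so the share called lies near that of all genes. This comparison uses other libraries than that in hypoxia. Each shares its WT libraries with the comparison of oxygen in WT lungs and its VIPKO libraries with that in VIPKO lungs.

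Mcm4 (chr16:15623897-15637400) had a signal of 489, 509, 436 and 588 in VIPKO normoxia libraries 1 to 4, against 384, 327, 342, 364, 435 and 349 in WT normoxia libraries 1 to 6. The lowest VIPKO library was just above the highest WT library, and the change was 0.46 ± 0.12 (adjusted p = 0.0251). Kif23 had 175, 211, 125 and 159.5 in VIPKO and 99.2, 117, 80.5, 103, 94.8 and 97.6 in WT normoxia libraries, with no overlap (0.74 ± 0.21, adjusted p = 0.0324). Hmmr had 48.8, 75.4, 40.6 and 66.4 in VIPKO and 33.1, 26.9, 15.1, 21.4, 34.2 and 34.6 in WT normoxia libraries, also without overlap (1.06 ± 0.32, adjusted p = 0.0462). VIPKO normoxia 2 was the highest for Kif23 and Hmmr and VIPKO normoxia 4 for Mcm4, while VIPKO normoxia 3 was the lowest for all 3 genes. Nusap1, which bundles spindle microtubules, missed the threshold (0.75 ± 0.23, adjusted p = 0.0504), as did Top2a (0.95 ± 0.31, adjusted p = 0.0605). Mki67 had 978, 1346, 714 and 1047 in VIPKO and 736, 644, 525, 647, 676 and 713 in WT normoxia libraries, and VIPKO normoxia 3 lay within the WT range (0.61 ± 0.25, adjusted p = 0.137).

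Of the 39 changes 38 were above 0, against 50.8% of all genes, with a median of 0.58 against 0.01 over all genes, 0.67 for the mitosis and 0.31 for the replication members. The exception was E2f1, the transcription factor that drives S-phase genes, with 185 ± 38.5 in VIPKO and 185 ± 16.4 in WT normoxia lungs (-0.02 ± 0.17). Groups did not overlap for 11 members, 28.2%, against 4.75% of all genes. They were Top2a, Ccnb1, Ccnb2, Bub1b, Plk1, Birc5, Kif23, Kif4, Nusap1, Hmmr and Mcm4. Unadjusted p-values were under 0.05 for 17 members, 43.6%, against 13.2% of all genes in the higher direction. Ccnb1 averaged 50.7 ± 17.8 in VIPKO and 23.7 ± 8.19 in WT normoxia lungs (1.07 ± 0.44, adjusted p = 0.128), and Cdk1 55.4 ± 11.8 in VIPKO and 32.6 ± 11.5 in WT lungs (0.80 ± 0.34, adjusted p = 0.144).

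No licensing or synthesis gene other than Mcm4 passed. Mcm2 averaged 349 ± 71.5 in VIPKO and 279 ± 39.5 in WT normoxia lungs (SD, n = 4 and 6), and Mcm5 226 ± 43.9 and 166 ± 34.1 in the same order. The sliding clamp Pcna averaged 741 ± 113 in VIPKO and 651 ± 122 in WT normoxia, Rrm2 116 ± 48.4 and 67.3 ± 19.6, and Cdt1 127 ± 20.7 and 117 ± 22.7. For each of these 5 the ranges overlapped, and adjusted p ran from 0.182 for Rrm2 to 0.771 for Cdt1.

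VIPKO hypoxia 3 is in neither group of this contrast, and enters it through the shared estimate of spread and the filter. Without it 21569 genes were tested, and 6 members passed (Top2a, Bub1b, Kif23, Nusap1, Hmmr and Mcm4), and 10.7% of all genes. Mcm4 missed the threshold without VIPKO normoxia 2 or 4 or WT normoxia 3 (adjusted p 0.0511 to 0.112), and Kif23 without those, VIPKO normoxia 1 or WT normoxia 1, 4 or 6 (0.0501 to 0.140). Hmmr missed it without VIPKO hypoxia 5, VIPKO normoxia 2, 3 or 4, WT hypoxia 1, 2, 3 or 5, or WT normoxia 1, 2, 3, 4 or 6 (0.0508 to 0.171). No member passed without VIPKO normoxia 2, VIPKO normoxia 4 or WT normoxia 3, 1 passed without WT normoxia 1, 4 or 6, 5 without VIPKO normoxia 1, and 6 without VIPKO hypoxia 1. No member passed without VIPKO normoxia 2 and 3 and VIPKO hypoxia 2, the libraries at the high end of the first component. The median over the members was then 0.63. Summed mitochondrial ribosomal RNA separated these groups, at 12034 to 27208 in VIPKO normoxia and 97.7 to 2075 in WT normoxia libraries. Alveolar macrophage markers were higher in VIPKO normoxia for 4 of 8. Their summed signal was 76306 in VIPKO normoxia 2, the library highest of its group for 27 members. It was 7938 to 15039 in the other VIPKO normoxia libraries and 4453 to 7902 in WT normoxia libraries. Of the neutrophil precursor markers 1 of 4 was higher (Ltf, 2.76 ± 0.63, adjusted p = 0.0135), with summed signals of 217 to 989 in VIPKO normoxia and 57.2 to 229.8 in WT normoxia libraries. Of the erythroid precursor markers 1 of 5 was higher (Tfrc, 0.48 ± 0.14, adjusted p = 0.0365), while the median of the 5 was -0.32 and the sums were 1581 to 2731 in VIPKO normoxia and 1393 to 2716 in WT normoxia libraries. The part of any of these in the results was not tested.

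**Figure D5:**
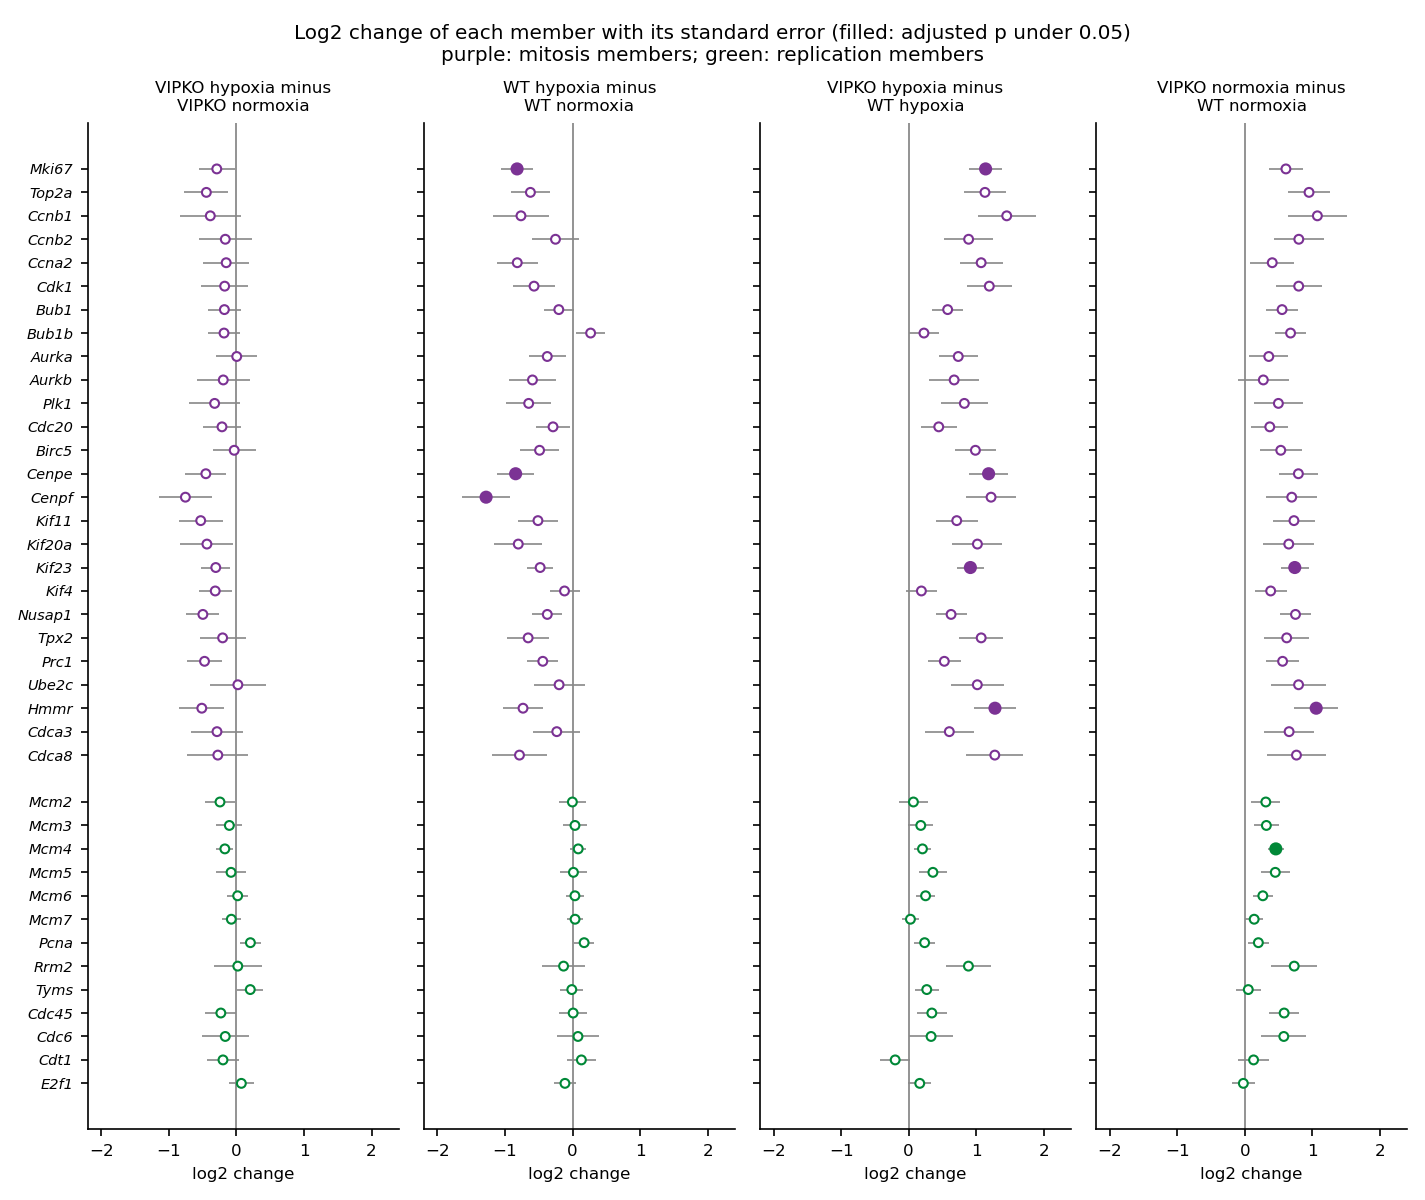
Log2 change ± SE of each member (rows) in 4 comparisons (panels), purple for mitosis and green for replication members; filled points have an adjusted p under 0.05. In both VIPKO minus WT panels 38 of 39 points lie above 0, and in the WT hypoxia panel 25 of 26 mitosis points lie below 0.

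In WT lungs, 3 mitosis members fell in hypoxia and no replication member passed. Cenpf, a kinetochore protein made late in the cycle, was 2.43-fold lower, Cenpe 1.79-fold lower and Mki67 1.77-fold lower. No member rose. The 3 genes are 7.69% of the members, against 6.77% of all genes called lower and 14.7% called in either direction, so the share is close to that of all genes.

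Cenpf (chr1:189640606-189688086) had a signal of 56.2, 42.3, 113, 31.1 and 146 in WT hypoxia libraries 1 to 5, against 177, 119, 178, 130.2, 187 and 194 in WT normoxia libraries 1 to 6. Libraries 1, 2 and 4 of hypoxia were low, library 3 lay just under the normoxia range, and library 5 lay within it. The 31.1 in WT hypoxia 4, the library of lowest estimated depth, rests on few reads. The change was -1.28 ± 0.35 (adjusted p = 0.0229). Mki67 had 275, 262, 396, 431 and 557 in WT hypoxia and 736, 644, 525, 647, 676 and 713 in WT normoxia libraries, where WT hypoxia 5 was above the lowest normoxia library (-0.82 ± 0.24, adjusted p = 0.0275). Cenpe had 32.5, 28.8, 38.7, 27.2 and 71.96 in WT hypoxia and 68.98, 53.8, 58.7, 59.9, 90.004 and 80.3 in WT normoxia libraries, with WT hypoxia 5 again within the normoxia range (-0.84 ± 0.27, adjusted p = 0.0443). No member had groups without overlap, against 3.81% of all genes in the lower direction. Mki67 and Cenpf overlap the predicted genes Gm45240 and Gm37239 on the opposite strand, and whether reads were counted by strand is not given in the sources used here.

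Of the 26 mitosis members 25 had a change below 0, with a median of -0.54, while 49.4% of all genes had a change above 0. The exception was the checkpoint kinase Bub1b, with 146, 113, 129, 109 and 147 in WT hypoxia and 121, 109, 82.2, 117, 122 and 91.3 in WT normoxia libraries (0.27 ± 0.22, adjusted p = 0.4004). Top2a averaged 171 ± 74.4 in WT hypoxia and 248 ± 40.1 in WT normoxia lungs (-0.62 ± 0.29), Ccnb1 16.5 ± 15.2 and 23.7 ± 8.19 (-0.76 ± 0.41), and Cdk1 21.8 ± 8.96 and 32.6 ± 11.5 (-0.57 ± 0.32), with adjusted p from 0.142 to 0.215. The replication members stayed between -0.13 and 0.17, with a median of 0.04 and adjusted p of at least 0.427. Over all genes the median was -0.01, and 9 members (23.1%) had an unadjusted p under 0.05, all lower, against 16.4% of all genes.

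Pcna averaged 724 ± 79 in WT hypoxia and 651 ± 122 in WT normoxia lungs, Mcm2 283 ± 69.6 and 279 ± 39.5, and Mcm5 165 ± 16.4 and 166 ± 34.1. Rrm2 averaged 60.8 ± 16.3 in hypoxia and 67.3 ± 19.6 in normoxia, Cdt1 127 ± 22.4 and 117 ± 22.7, and E2f1 174 ± 36.1 and 185 ± 16.4. In each the difference was under the SD of at least 1 of the groups.

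Without VIPKO hypoxia 3, Ccna2, which is cyclin A2, passed as well, and 19.7% of all genes were called. Cenpf missed the threshold without WT hypoxia 1 or 2 (adjusted p 0.0534 and 0.0502), Mki67 without those, WT hypoxia 3 or WT normoxia 6 (0.0518 to 0.0735), and Cenpe without the library labelled VIPKO hypoxia 4, VIPKO hypoxia 5, WT hypoxia 1 to 4 or any WT normoxia library (0.0501 to 0.0913). No member passed without WT hypoxia 1 or 2, and 1 passed without WT hypoxia 3 or WT normoxia 6. Ccnb1 passed without WT hypoxia 5 (adjusted p = 0.0442), the library with the highest muscle markers. Of 7 B cell and plasma cell markers tested, 4 were lower in WT hypoxia than in WT normoxia, with summed signals of 1125 to 2877 in hypoxia and 1473 to 4610 in normoxia. Alveolar macrophage markers were higher for 4 of 8, at 10059 to 20721 in hypoxia and 4453 to 7902 in normoxia. Lung markers were higher for 5 of 9 (Sftpc, Sftpa1, Sftpb, Lamp3 and Foxj1), with a median change of 0.56 and sums of 393197 to 807685 in hypoxia and 327224 to 457150 in normoxia. The neutrophil precursor marker Ltf was higher too (3.195 ± 0.59, adjusted p = 0.00368), as 1 of 4 tested, with sums of 250.9 to 1881 in hypoxia and 57.2 to 229.8 in normoxia. None of 5 erythroid precursor markers was called, with a median of -0.59. The part of these cells in the result was not tested.

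In VIPKO lungs, hypoxia changed no member past the threshold. Of all genes tested, 0.997% passed. No member had an unadjusted p under 0.05 either, against 13% of all genes. The 4 smallest p-values were those of Nusap1 (-0.50 ± 0.24), Cenpf (-0.75 ± 0.39), Prc1 (-0.47 ± 0.26) and Kif11 (-0.53 ± 0.33), with adjusted p of 0.397 to 0.505. Prc1 bundles the central spindle and Kif11 pushes spindle poles apart. Nusap1 had 50.2, 59.97, 128, 90.2 and 68.3 in VIPKO hypoxia and 87.8, 134, 83.3 and 130.4 in VIPKO normoxia libraries, with VIPKO hypoxia 3 and 4 inside the normoxia range. Cenpf had 79.5, 108, 250.3, 193 and 213 in VIPKO hypoxia and 289.9, 296, 157 and 348 in VIPKO normoxia libraries, where libraries 1 and 2 of hypoxia were the low ones. Mki67 averaged 876 ± 356 in VIPKO hypoxia and 1021 ± 259 in VIPKO normoxia lungs (-0.29 ± 0.26, adjusted p = 0.668).

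The changes were below 0 for 32 of the 39 members, with a median of -0.20 (-0.29 for mitosis and -0.08 for replication members) against -0.01 over all genes, of which 48.3% were above 0. Without VIPKO hypoxia 3 the median was -0.39, 37 of 39 were below 0, and still none passed, against 0.858% of all genes. In that fit 8 members had an unadjusted p under 0.05, and the share of all genes at that level is not given here. In VIPKO hypoxia 3 Mki67, Top2a, Ccnb1, Kif11, Rrm2 and Mcm5 were the highest of the 5 VIPKO hypoxia libraries, as was the T cell marker sum, at 9637 against 595 to 852 in the other 4. Its alveolar macrophage marker sum was also the highest, at 48358 against 14433 to 21949 in the other 4. The part of thymus cells or macrophages in its values was not tested. B cell and plasma cell markers were lower for 4 of 7 tested, with summed signals of 748 to 2084 in VIPKO hypoxia and 2213 to 3358 in VIPKO normoxia libraries.

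Whether hypoxia acted differently in VIPKO and WT lungs was tested as an interaction, the VIPKO change minus the WT change. No member passed, and none had an unadjusted p under 0.05, against 0.282% and 14.2% of all genes. The smallest p-values were those of Mki67 (0.53 ± 0.35), Mcm4 (-0.25 ± 0.17), Ccna2 (0.67 ± 0.45) and Bub1b (-0.45 ± 0.32), with adjusted p of 0.517 to 0.547. The median was 0.15 and became -0.07 without VIPKO hypoxia 3, when 2 members had an unadjusted p under 0.05 (share of all genes not given here). The calls in WT and not in VIPKO lungs are therefore no shown difference between genotypes, nor are those in hypoxia and not in normoxia.

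Other genes of the same processes were taken from lists that exclude the members. Of 32 further mitosis genes, 5 were higher in VIPKO than in WT lungs in hypoxia, against 0.716% of all genes, and none lower. Kif15, a spindle kinesin, had 59.6, 74, 111, 121 and 94.7 in VIPKO hypoxia and 38, 47.4, 42.9, 35 and 42.3 in WT hypoxia libraries, with no overlap (1.105 ± 0.20, adjusted p = 0.0146), and passed without each library in turn. The condensin subunits Smc2 (0.86 ± 0.16, adjusted p = 0.0146) and Ncapg (1.4 ± 0.31, 0.0286) and the kinetochore gene Ndc80 (1.06 ± 0.24, 0.0336) were also called. In normoxia 4 of the 32 were higher in VIPKO lungs, against 4.69% of all genes, namely Smc4 (0.62 ± 0.13, adjusted p = 0.00888), Smc2 (0.65 ± 0.16, 0.0185), the cytokinesis gene Anln (0.59 ± 0.17, 0.0335) and the kinase Melk (1.05 ± 0.30, 0.0373). In WT lungs 6 were lower in hypoxia, against 6.77% of all genes, led by Kif15 (-0.74 ± 0.19, adjusted p = 0.0167), Ndc80 (-0.90 ± 0.23, 0.0174), the mitotic transcription factor Foxm1 (-0.77 ± 0.22, 0.0244) and the cohesin protector Sgo1 (-0.70 ± 0.22, 0.0357). In VIPKO lungs none was called for hypoxia (Anln -0.45 ± 0.17, Cenpa -0.42 ± 0.21), nor in the interaction (Kif15 0.75 ± 0.28, Spc25 0.98 ± 0.40). Between genotypes in hypoxia Smc2 also passed without each library, whereas Ncapg was lost without VIPKO hypoxia 2, the library labelled VIPKO hypoxia 4, VIPKO hypoxia 5 or WT hypoxia 1 or 2, and Ndc80 without those of VIPKO or WT hypoxia 1, 3 or 5 (adjusted p 0.0519 to 0.0886). In normoxia Smc4 was lost without VIPKO normoxia 4, Smc2 without VIPKO normoxia 2 or 4, Anln without those or WT normoxia 3, 4 or 6, and Melk without VIPKO normoxia 2, 3 or 4 or WT normoxia 1, 4 or 6 (0.0508 to 0.141). In WT lungs Kif15 and Ndc80 passed without each library, Foxm1 was lost without WT hypoxia 1 or 2 or WT normoxia 6, and Sgo1 without those, WT hypoxia 3 or WT normoxia 2 or 4 (0.0514 to 0.0944). The counts of the 32 without VIPKO hypoxia 3 were 5 higher between genotypes in hypoxia, 6 higher in normoxia, and 7 lower and 1 higher (Bub3) for hypoxia in WT lungs. In the same order, 6.25%, 10.7% and 19.7% of all genes were then called in either direction.

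Of 27 further replication genes, 2 were higher in VIPKO than in WT lungs in hypoxia, against 0.716% of all genes. Cdc7, the kinase that fires origins, had 52.4, 64.4, 66.9, 66.05 and 62.3 in VIPKO hypoxia and 23.7, 30.5, 38.7, 46.6 and 30.8 in WT hypoxia libraries, with no overlap (0.88 ± 0.19, adjusted p = 0.0265). The helicase cofactor Mcm10 changed by 1.04 ± 0.26 (adjusted p = 0.0445). In WT lungs Cdc7 was lower in hypoxia (-1.097 ± 0.18, adjusted p = 0.00221), as was the thymidine kinase Tk1 (-0.68 ± 0.13, 0.00537), while the clamp loader subunit Rfc4 was higher (0.85 ± 0.23, 0.0219). These are 2 lower and 1 higher of the 27, against 6.77% of all genes called lower and 14.7% called in either direction. Cdc7 averaged 72.7 ± 9.103 in WT normoxia lungs, so its WT hypoxia group was the low one of the 4. None of the 27 was called between genotypes in normoxia (Rfc4 0.75 ± 0.25, Dbf4 0.57 ± 0.19), for hypoxia in VIPKO lungs (Orc1 -0.69 ± 0.33, Tk1 -0.26 ± 0.15) or in the interaction (Cdc7 0.88 ± 0.27, Chaf1b -0.99 ± 0.35). In WT lungs Cdc7 and Tk1 passed without each library in turn, and Rfc4 was lost without WT hypoxia 1 (adjusted p = 0.0512). Between genotypes in hypoxia Cdc7 was lost without VIPKO hypoxia 2, the library labelled VIPKO hypoxia 4, VIPKO hypoxia 5 or WT hypoxia 1 or 2 (0.0504 to 0.0691). Mcm10 was lost without any of those, WT hypoxia 3 or 4, VIPKO normoxia 1, 3 or 4 or WT normoxia 1, 3, 4 or 6 (0.0509 to 0.1004). Between genotypes in normoxia Rfc4 passed without WT normoxia 5 (0.0444), and Dbf4 without VIPKO hypoxia 3, WT hypoxia 4 or WT normoxia 5 (0.0404 to 0.0428). In the interaction Cdc7 passed without WT hypoxia 4 (0.0459) and Chaf1b without VIPKO hypoxia 3 (0.0471). The counts of the 27 without that library were 2 higher between genotypes in hypoxia, 3 higher in normoxia (Dbf4, Chaf1b and Uhrf1), 2 higher and 3 lower for hypoxia in WT lungs, and 1 lower in the interaction. In the same order, 6.25%, 10.7%, 19.7% and 1.69% of all genes were then called in either direction.

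Of 13 cell cycle brakes tested, 2 rose with hypoxia in VIPKO lungs, where 0.997% of all genes were called in either direction. Cdkn1a, the p21 inhibitor of cyclin-dependent kinases, had 1510.2, 1047, 1111, 1456 and 1025 in VIPKO hypoxia and 535, 626, 717 and 608 in VIPKO normoxia libraries. The groups did not overlap, the rise was 1.96-fold, and the change was 0.97 ± 0.19 (adjusted p = 0.0161). Cdkn1c, the p57 inhibitor, had 545, 522, 523, 762 and 583 in VIPKO hypoxia and 395, 387, 299 and 445 in VIPKO normoxia libraries, again without overlap (0.62 ± 0.14, adjusted p = 0.0339). In normoxia 2 brakes were lower in VIPKO than in WT lungs, where 8.65% of all genes were called in either direction. Cdkn1a stood at 622 ± 74.8 in VIPKO (SD, n = 4) and 955 ± 202 in WT lungs (n = 6), with -0.60 ± 0.19 (adjusted p = 0.0493). The antiproliferative gene Btg2 was lower as well (-0.80 ± 0.22, adjusted p = 0.0286). No brake passed for hypoxia in WT lungs (Trp53 -0.23 ± 0.10, Rb1 -0.26 ± 0.12), between genotypes in hypoxia (Cdkn1c 0.50 ± 0.13, Rb1 0.40 ± 0.13) or in the interaction (Cdkn1c 0.78 ± 0.19, Cdkn1a 0.95 ± 0.26). The 2 rises in VIPKO lungs were lost without VIPKO hypoxia 1 or the library labelled VIPKO hypoxia 4, and that of Cdkn1c also without VIPKO hypoxia 5 or VIPKO normoxia 2 or 3 (adjusted p 0.0511 to 0.170 over both genes). In normoxia Btg2 was lost without VIPKO normoxia 2 or 4 or WT normoxia 3 (0.0646 to 0.101), and Cdkn1a without 15 of the 20 libraries, all but VIPKO hypoxia 3, WT hypoxia 1, 4 and 5 and WT normoxia 2 (0.0506 to 0.125). In WT lungs Trp53 passed without WT normoxia 5 (0.0183). Between genotypes in hypoxia Rb1 passed without VIPKO hypoxia 3 or WT normoxia 2 (0.0376 and 0.0498). Cdkn1c passed there without VIPKO hypoxia 3, VIPKO normoxia 3 or WT normoxia 2 or 5 (0.0317 to 0.0497) and in the interaction without VIPKO hypoxia 3, WT hypoxia 4 or WT normoxia 2 (0.0404 to 0.0490), and Cdkn1a in the interaction without WT hypoxia 4 (0.0383).

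Among 10 G1 cyclins, kinases and their activators, Ccne2, which is cyclin E2, was higher in VIPKO than in WT lungs in normoxia (1.03 ± 0.27, adjusted p = 0.0246), at 99.9 to 141 in VIPKO and 37.1 to 109 in WT libraries. It was lost without VIPKO normoxia 2, 3 or 4 or WT normoxia 1, 3 or 6 (0.0503 to 0.0945). The share of all genes called higher was 4.69%. No other gene of this list passed in any comparison over all 20 libraries. Cdk4 passed without VIPKO hypoxia 3 for hypoxia in WT lungs (0.28, adjusted p = 0.0262) and as lower between genotypes in hypoxia (-0.33, 0.0417), and without WT hypoxia 4 Cdk6 passed for hypoxia in WT lungs (0.0332). The smallest p-values elsewhere were those of Cdk4 (0.28 ± 0.12) and Cdk6 (-0.23 ± 0.11) for hypoxia in WT lungs, Cdc25a (0.25 ± 0.12) and Ccnd3 (0.20 ± 0.14) for hypoxia in VIPKO lungs, Cdc25a (0.31 ± 0.12) and Ccne2 (0.66 ± 0.27) between genotypes in hypoxia, and Cdc25a (0.41 ± 0.16) and Ccnd3 (0.37 ± 0.18) in the interaction. None of 7 E2F genes other than E2f1 passed in any comparison over all 20 libraries. E2f4 passed without VIPKO hypoxia 3 as lower in VIPKO than in WT lungs in normoxia (-0.27, adjusted p = 0.0391). For hypoxia in WT lungs the smallest p-values were those of E2f7 (-0.60 ± 0.25) and E2f4 (-0.22 ± 0.10), and in VIPKO lungs E2f4 (0.17 ± 0.11) and E2f6 (0.14 ± 0.13). Between VIPKO and WT they were those of E2f7 (0.80 ± 0.26) and E2f8 (0.65 ± 0.34) in hypoxia and E2f4 (-0.27 ± 0.10) and E2f2 (-0.32 ± 0.14) in normoxia, and in the interaction E2f4 (0.39 ± 0.14) and E2f7 (0.48 ± 0.37).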

How the data were processed

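RNA of whole mouse lung was extracted with RNeasy Mini Plus and made into libraries with NEBNext Ultra II Directional, per the labels' protocols. The submitters' processing notes name the mm10 build and Partek, with no role or order. No source used here names the aligner, the counting method or its use of strand. The authors deposited a normalized signal per gene, with a scaling not given in the sources used here. Each of the 20 columns was tied to its sample by the library name in the labels, and 0 further sample columns were left out. The 55 lines with no gene name held 0.00487 to 0.0187% of the signal and were not tested, and 133 lines repeat a name.

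Low values step by what 1 read is worth, which gave an estimated depth of 4.96 to 56.7 M reads over the 19 libraries other than VIPKO hypoxia 2 (median 17.8 over all 20). The share of low values within 0.05 of a whole read spanned 81.5 to 89.0% over 19 libraries, with VIPKO hypoxia 2 at 40.0%, so no count test was run. A smaller step gave 79.7% in VIPKO hypoxia 2, so the depth of 56.5 M reads estimated for it is likely too low. Genes with a signal of at least 10 in at least 4 libraries (21658) were tested with limma 3.58.1 (R 4.3.3) on log2(signal + 1), with a mean for each of the 4 groups over all 20 libraries, an intensity trend and Benjamini-Hochberg adjustment over all genes tested, at 0.05. A fold on this scale understates the change of low genes. Coordinates are from GENCODE vM21 (GRCm38), and promoters from RefSeq (GRCm38.p6). The members, lists, tests and alternatives were chosen with earlier results of these data known. Genes named beside the members followed a rule: up to 6 called members a comparison (4 by smallest p where none was called), and up to 4 called genes of each other list (otherwise 2 by smallest p). Mki67, Top2a, Ccnb1, Cdk1, Aurkb, Plk1, Birc5, Mcm2, Mcm5, Pcna, Rrm2, Cdt1 and E2f1 were followed throughout, while Bub1b in WT lungs, marker genes, and Bub3, Uhrf1, Chaf1b and Cdk4 where they passed without VIPKO hypoxia 3 were named after their values were seen. Alternatives were other pseudocounts, filters, scalings, weights, a replicate block, and fits without single libraries or those that stood apart.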

Additional observations from a re-analysis of the deposited data

Results flagged for a closer look

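Of 156 combinations of a member and a group, 10 had a library farther from its nearest neighbour than Dixon's criterion allows, and chance gives about 1 in 20. Values are log2(signal + 1). VIPKO hypoxia 3, the library with thymus genes, was far above its group for Mcm7 (9.11) and Cdc45 (6.11). VIPKO normoxia 3 was far below its group for Cdc20 (6.26), the activator of the anaphase-promoting complex. WT hypoxia 5 was far below its group for Pcna (9.21), and WT hypoxia 4 for Tyms (6.15). WT normoxia 2 was far below its group for the helicase subunits Mcm2 (7.68), Mcm3 (7.83) and Mcm6 (8.26) and for Pcna (8.74). WT normoxia 3 was far below its group for Prc1 (6.66).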

How the results depend on the processing

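The medians over the members kept their direction in all settings run, except that the interaction (0.15) was below 0 with array weights (-0.06) and without VIPKO hypoxia 3 or WT hypoxia 2. Over fits without 1 library they were 0.45 to 0.83 between VIPKO and WT in hypoxia, 0.49 to 0.72 between them in normoxia, -0.42 to -0.21 for hypoxia in WT, -0.39 to -0.07 for hypoxia in VIPKO lungs and -0.07 to 0.27 for the interaction. Counts of members called moved more. Between genotypes in hypoxia (4) they were 2 with no filter or quantile normalization, 0 in the fit on both groups alone, and 7 without VIPKO hypoxia 3 and WT hypoxia 5. In that comparison they were 0 to 7 without 1 library. They were 1 without the 3 libraries at the high end of the first component (also 1 without VIPKO hypoxia 3 in addition). Between genotypes in normoxia (3) they were 15 with array weights, 10 in the fit on both groups alone, 8 without VIPKO hypoxia 3 and WT hypoxia 5, 0 without those 3 libraries (also 0 without VIPKO hypoxia 3 in addition), and 0 to 6 without 1 library. For hypoxia in WT (3) they were 5 with upper quartile rescaling, 5 with array weights, 7 without VIPKO hypoxia 3 and WT hypoxia 5, and 0 to 4 without 1 library. They were 0 for hypoxia in VIPKO lungs and for the interaction in all settings run. The cause of these moves was not tested. With the replicate number as a block, 1 member was called in each of the first 3 comparisons. After group means were removed, same-numbered libraries correlated at -0.21 to -0.02 for WT hypoxia and normoxia and -0.19 to -0.07 between genotypes in normoxia. In VIPKO the range was -0.29 to 0.41, with 3 of 4 pairs over 0.1. Between genotypes in hypoxia it was -0.12 to 0.30, with 2 of 5 pairs over 0.1. VIPKO hypoxia 2 and VIPKO normoxia 3, with unlike numbers, correlated at 0.56. So few pairs cannot settle whether the numbers pair the samples. Upper quartile rescaling moved the median of all genes to -0.10 for hypoxia in WT. Of single genes, E2f1 between genotypes in normoxia (-0.02) was -0.11 to 0.072 without 1 library, 0.00086 with array weights and 0.059, 0.072, 0.0011 and 0.013 without VIPKO normoxia 1, VIPKO normoxia 3, WT normoxia 2 and WT normoxia 4, and Ccnd3 for hypoxia in VIPKO lungs (0.20) was -0.031 without VIPKO hypoxia 3 and the 3 libraries. The 2 settings without those 3 libraries were chosen after seeing the data.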
